A study of Mus musculus with 8 samples.

Results

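The 10 genes described here encode feedback inhibitors of mitogen-activated protein (MAP) kinase signalling: the dual-specificity phosphatases Dusp1, Dusp4, Dusp5, Dusp6 and Dusp10, the Sprouty proteins Spry1, Spry2 and Spry4, and the Sprouty-related proteins Spred1 and Spred2. They were chosen by gene name and are 10 of the 43346 genes in the count table, and 8 of them were among the 14991 genes with enough reads to be tested. RNA came from the mouse pre-osteoblast line MC3T3, which forms a bone-like matrix in culture. All samples were kept for 7 days with ascorbic acid (100 ug/mL) and beta-glycerophosphate (10 mM), additions under which the matrix can mineralize. In 4 of them, labelled LLC-CM, 25% of the medium was filtered serum-free medium conditioned for 48 hours by LLC1, a line of mouse Lewis lung carcinoma cells. The other 4, labelled NCM, are taken as the vehicle cultures by elimination, since the labels do not spell the name out or say what the vehicle held. Whether the replicates are independently grown cultures is not stated, so each p-value reflects only how far these libraries spread, and that spread may be technical.

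In the MAP kinase cascades, growth factor receptors activate Ras, Raf and the kinase ERK, while stress and cytokine receptors activate the kinases JNK and p38. Dual-specificity phosphatases remove the activating phosphates from these kinases, and Sprouty and Spred proteins act higher up, between the receptor and Raf. Several of these genes are themselves transcribed in response to ERK, which closes the feedback loop. In osteoblasts the loop is best known downstream of fibroblast growth factor receptors, which control proliferation and differentiation.

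The libraries held between 27264212 and 35573953 counted reads, and a count of 0 allowed at most 0.110 CPM (reads scaled to a common library total) in the shallowest library (3 counts, counting error only). All 8 osteoblast markers examined had at least 1 CPM on average, and all 8 were lower in LLC-CM, with a summed level of 60310 to 74050 CPM against 90300 to 116200 CPM in NCM. Of 7 macrophage markers, Itgam was at 0 in every library and 2 of the 4 tested, Lyz2 and Fcer1g, were higher in LLC-CM. The summed level was 18.7 to 32.3 CPM against 11.7 to 17.4 CPM in NCM, most of it Lyz2 (mean 20.3 against 11.5 CPM). Cd68 and Csf1r were not called, with log2 differences of 0.12 and -0.48. Ptprc and Emr1 had 4 and 3 reads in all, none of them in LLC-CM. Epcam, Krt8, Krt18, Cdh5 and Kdr, markers of epithelium and endothelium, were at 0 in all 8 libraries, and the summed lists reached at most 0.177 CPM (4 epithelial genes) and 2.73 CPM (4 endothelial genes). Summed adipocyte markers were 9.44 to 16.1 CPM in LLC-CM and 3.32 to 5.14 CPM in NCM. Most of this sum was Fabp4 (mean 11.3 against 4.36 CPM), and Adipoq, Plin1 and Pparg averaged at most 0.191 CPM in either group. Skeletal muscle markers summed to 0.966 to 1.90 CPM against 0.318 to 0.716 CPM. Most of that difference was Tnnt3 (mean 0.897 against 0.243 CPM), and Acta1 (0.345 against 0.307 CPM) was not called. Chondrocyte markers were 35.3 to 37.4 CPM against 66.5 to 92.5 CPM, with Col2a1 lower and Sox9 higher in LLC-CM. The part that these markers have in the results below was not tested.

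The feedback inhibitors did not move as a group in LLC-CM, and the called changes were all under 2-fold. Dusp5, Dusp6 and Dusp10 rose, Spry1, Spred1 and Spred2 fell, and Dusp1 and Spry2 were not called. Dusp4 and Spry4 were near the detection limit in both groups. The 6 called genes among 8 tested stand beside 36.9% of all tested genes called in either direction, 18.8% higher and 18.1% lower (edgeR's quasi-likelihood test, Benjamini-Hochberg adjusted p under 0.05). The median log2 fold change of the 8 tested genes was 0.00, ranging from -0.96 to 0.50, and that of all genes tested was 0.01. In bulk RNA, fewer cells that express a gene and less RNA per cell cannot be told apart. Levels are given below in CPM after trimmed-mean (TMM) scaling of the library totals, and fold changes as LLC-CM against NCM.

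**Figure D1:**
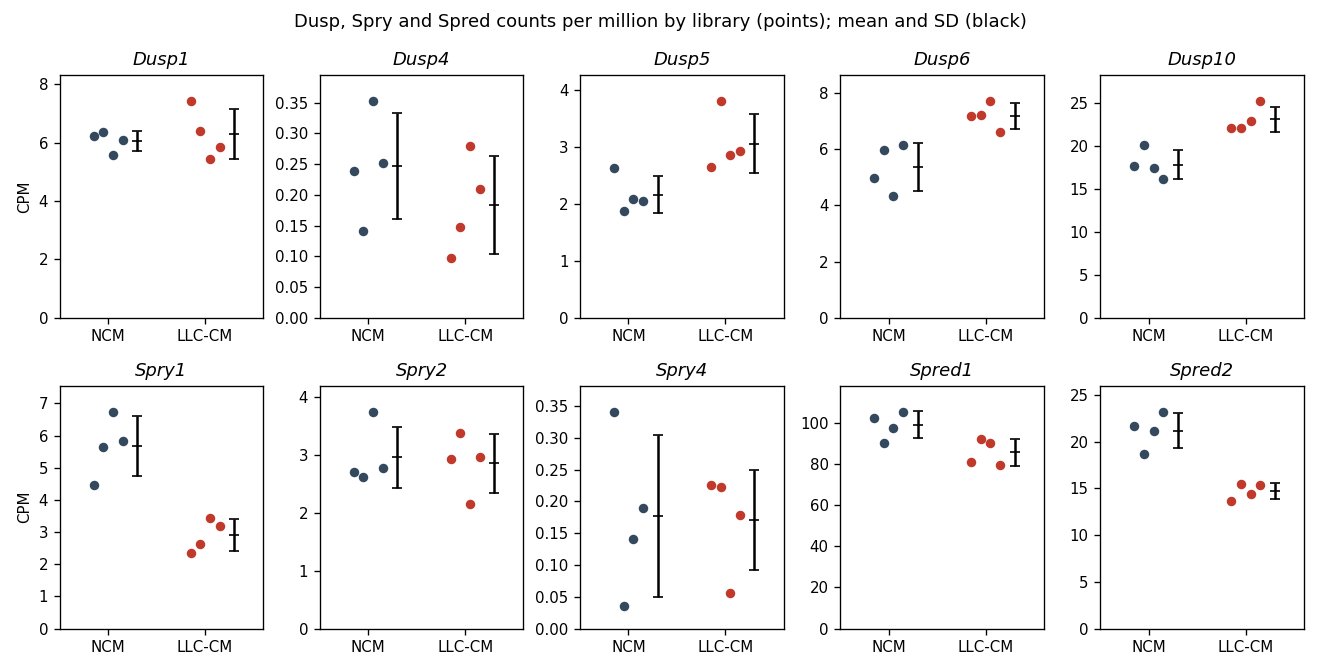
CPM (vertical axis, from 0) of each of the 10 genes in the 4 NCM and 4 LLC-CM libraries, 1 point per library in replicate order, with the group mean and SD in black. The LLC-CM points of Dusp5, Dusp6 and Dusp10 all lie above the NCM points, and those of Spry1 and Spred2 all lie below them. For Dusp5 the margin is slight, with 2.64 CPM in LLC-CM replicate 1 and 2.63 CPM in NCM replicate 1. The points of Dusp1, Dusp4, Spry2, Spry4 and Spred1 overlap. Groups did not overlap, in either direction, for 36.3% of all genes tested.

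Dusp10 (ENSMUSG00000039384, chromosome 1, 184013302 to 184075636 in mm10) encodes a phosphatase that acts mainly on p38 and JNK. It was the most abundant phosphatase gene of the set, in CPM and per kilobase. The LLC-CM libraries 1 to 4 had 22.1, 22.2, 22.9 and 25.3 CPM, and the NCM libraries had 17.7, 20.1, 17.4 and 16.2 CPM. Every LLC-CM library was above every NCM library. Groups were separated in this way, in either direction, for 36.3% of all genes tested. Dusp10 rose 1.30-fold, a log2 change of 0.38 ± 0.09 (SE; edgeR adjusted p = 0.0031). The call held when any 1 library was left out (adjusted p 0.0026 to 0.016).

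Dusp6 (ENSMUSG00000019960, chromosome 10, 99263231 to 99267488) encodes a cytoplasmic phosphatase specific for ERK and is a widely used readout of ERK and fibroblast growth factor signalling. Its level was 7.18, 7.21, 7.73 and 6.61 CPM in LLC-CM and 4.98, 5.99, 4.34 and 6.15 CPM in NCM. The groups did not overlap, but NCM replicates 2 and 4 came close to the lowest LLC-CM library. Dusp6 rose 1.34-fold, a log2 change of 0.42 ± 0.13 (SE; edgeR adjusted p = 0.021). The call was lost without LLC-CM replicate 3 (adjusted p = 0.057), NCM replicate 1 (0.068) or NCM replicate 3 (0.070), all in edgeR. In the even-numbered libraries alone the log2 difference was 0.18 ± 0.19 (SE, adjusted p = 0.58), and in the odd-numbered libraries it was 0.67.

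Dusp5 (ENSMUSG00000034765, chromosome 19, 53529109 to 53542431) encodes a nuclear phosphatase specific for ERK. Its counts were low, between 53 and 103 reads per library. LLC-CM libraries had 2.64, 3.81, 2.86 and 2.93 CPM, and NCM libraries had 2.63, 1.88, 2.08 and 2.05 CPM. LLC-CM replicate 2 was the highest library, and LLC-CM replicate 1 and NCM replicate 1 were almost equal. Dusp5 rose 1.41-fold, a log2 change of 0.50 ± 0.18 (SE; edgeR adjusted p = 0.042), and the call is a marginal one. It was lost in edgeR without any 1 of LLC-CM replicates 2 (adjusted p = 0.13), 3 (0.050) and 4 (0.063) or NCM replicates 2 (0.12), 3 (0.083) and 4 (0.089), and with the replicate number as a block (0.061). An antisense gene model overlapped 22.1% of the exonic bases of Dusp5 in GENCODE M21, and the library kit does not mark strand, so reads of the pair cannot be told apart.

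Dusp1 (ENSMUSG00000024190, chromosome 17, 26505590 to 26508519), an immediate early gene for a nuclear phosphatase of p38, JNK and ERK, was not called. It had 7.44, 6.40, 5.46 and 5.86 CPM in LLC-CM and 6.24, 6.38, 5.58 and 6.09 CPM in NCM. The LLC-CM libraries lay on both sides of the NCM libraries. The log2 difference was 0.05 ± 0.13 (SE, edgeR, adjusted p = 0.80), with a 95% interval of -0.22 to 0.32. Dusp4 (ENSMUSG00000031530, chromosome 8, 34807297 to 34819894), a nuclear relative of Dusp1, had 3, 4, 10 and 7 reads in the LLC-CM libraries and 7, 4, 10 and 8 in the NCM libraries. No difference in Dusp4 was detected, and with so few reads a moderate one could be missed. When the low-count filter was lifted, its log2 difference was -0.40 ± 0.55 (SE, edgeR, adjusted p = 0.63).

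Upstream sequences of 3 phosphatase genes and of Spry1 are shown because these are known ERK-inducible members with different outcomes here. RefSeq windows of 250 bases before to 50 bases after the start of transcription (GRCm38.p6) were at hand for 8 of the 10 genes. Each was searched on both strands for the cyclic AMP response element TGACGTCA, the AP-1 site spelled TGACTCA, the Ets site spelled CCGGAAG, the Egr site spelled GCGGGGGCG, the TATA box spelled TATAAA and the CArG box, the core of the serum response element. The CArG box was found in Dusp5 alone of the 8, against 1.63% of 32851 windows, and there 2 copies stood side by side. TGACGTCA was found in Dusp1 alone of the 8, against 1.79% of windows. The AP-1, Ets, Egr and TATA sequences, found in 5.20%, 8.86%, 2.91% and 13.6% of windows, were in none of the 8. The searched sequences do not overlap one another in the matches shown. A match describes the letters and shows neither binding nor a cause. The sequences run 5′ to 3′ on the gene's strand up to the base before the annotated gene, with matches in capitals.
Dusp5, chr19:53528895-53529108, plus strand: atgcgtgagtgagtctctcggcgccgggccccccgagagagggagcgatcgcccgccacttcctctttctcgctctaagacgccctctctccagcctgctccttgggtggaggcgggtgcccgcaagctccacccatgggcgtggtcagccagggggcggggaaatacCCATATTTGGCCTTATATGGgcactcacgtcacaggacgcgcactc
Dusp1, chr17:26508520-26508722, minus strand: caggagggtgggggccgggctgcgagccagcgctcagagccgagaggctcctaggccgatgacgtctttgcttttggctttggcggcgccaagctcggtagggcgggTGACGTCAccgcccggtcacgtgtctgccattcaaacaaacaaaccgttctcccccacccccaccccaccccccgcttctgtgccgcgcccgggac
Dusp6, chr10:99262981-99263230, plus strand: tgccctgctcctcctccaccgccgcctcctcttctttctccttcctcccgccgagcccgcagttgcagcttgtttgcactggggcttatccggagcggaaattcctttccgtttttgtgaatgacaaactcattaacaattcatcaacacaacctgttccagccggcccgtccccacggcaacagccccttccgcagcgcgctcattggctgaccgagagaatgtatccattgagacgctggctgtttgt
Spry1, chr3:37639697-37639946, plus strand: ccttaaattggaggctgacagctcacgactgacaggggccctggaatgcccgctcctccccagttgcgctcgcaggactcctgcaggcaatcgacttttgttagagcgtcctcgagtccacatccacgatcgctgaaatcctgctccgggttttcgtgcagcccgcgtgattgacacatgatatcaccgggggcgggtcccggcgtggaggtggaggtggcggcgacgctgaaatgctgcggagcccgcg

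Spry1 (ENSMUSG00000037211, chromosome 3, 37639947 to 37644598) showed the largest change of the 8 tested genes. Sprouty proteins are recruited to the membrane after receptor activation and restrain the step from receptor to Ras and Raf. LLC-CM libraries had 2.35, 2.63, 3.44 and 3.20 CPM, and NCM libraries had 4.47, 5.63, 6.75 and 5.84 CPM. All 4 LLC-CM values lay below the lowest NCM value. Spry1 was 1.94-fold lower in LLC-CM, a log2 change of -0.96 ± 0.17 (SE; edgeR adjusted p = 3e-04). It remained called without any 1 library (adjusted p 2e-04 to 0.0017) but not against a 1.5-fold change (0.053). An antisense gene model overlapped 24.4% of its exonic bases, so the reads of the pair cannot be told apart.

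Spry2 (ENSMUSG00000022114, chromosome 14, 105891949 to 105896819), a close relative of Spry1, was not called. Its level was 2.93, 3.37, 2.16 and 2.96 CPM in LLC-CM and 2.70, 2.62, 3.74 and 2.78 CPM in NCM. NCM replicate 3 was the highest of all 8 libraries, and the groups overlapped. The log2 difference was -0.06 ± 0.18 (SE, edgeR, adjusted p = 0.84), with a 95% interval of -0.45 to 0.33, and its sign turned without NCM replicate 3 (0.07) or LLC-CM replicate 3 (0.05). Spry4 (ENSMUSG00000024427, chromosome 18, 38586268 to 38601268), a further family member that is a common ERK target, had 7, 6, 2 and 6 reads in LLC-CM and 10, 1, 4 and 6 in NCM. Both groups summed to 21 reads, and the log2 difference without the low-count filter was -0.09 ± 0.65 (SE, edgeR, adjusted p = 0.95). That error is too wide to tell a moderate change in Spry4 from none.

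The Spred genes encode membrane-bound relatives of the Sprouty proteins that bring the Ras inactivator neurofibromin to Ras, and both fell. Spred2 (ENSMUSG00000045671, chromosome 11, 19924375 to 20024026) had 13.7, 15.4, 14.4 and 15.4 CPM in LLC-CM and 21.7, 18.6, 21.2 and 23.2 CPM in NCM. The groups were well apart, with LLC-CM replicate 1 the lowest library and NCM replicate 4 the highest. Spred2 was 1.44-fold lower in LLC-CM, a log2 change of -0.53 ± 0.09 (SE; edgeR adjusted p = 0.00023), and it remained called without any 1 library (adjusted p up to 0.0014).

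Spred1 (ENSMUSG00000027351, chromosome 2, 117121374 to 117182279) was the most abundant gene of the set in both groups. Its level was 81.0, 92.4, 90.6 and 79.6 CPM in LLC-CM and 102.7, 90.7, 97.8 and 105.7 CPM in NCM. The groups overlapped, because LLC-CM replicate 2 was above NCM replicate 2. Spred1 was 1.16-fold lower in LLC-CM, a log2 change of -0.21 ± 0.07 (SE; edgeR adjusted p = 0.025). The call was lost in edgeR without LLC-CM replicate 1 (adjusted p = 0.070), LLC-CM replicate 4 (0.067), NCM replicate 1 (0.058) or NCM replicate 4 (0.063).

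**Figure D2:**
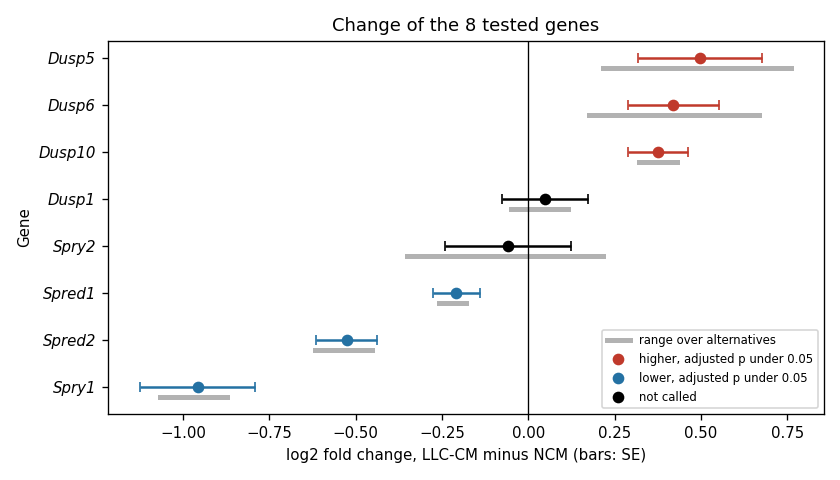
Log2 fold change of the 8 tested genes, LLC-CM minus NCM (horizontal axis), with the SE as bars and, in grey, the range over the alternatives. These include other ways of processing the counts and fits to fewer libraries, with each library left out or with odd- or even-numbered libraries alone. Spry1 lies lowest at -0.96 and Dusp5 highest at 0.50, and the grey ranges of Dusp1 and Spry2 cross 0.

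Levels can be compared between genes only per length, as RPKM, which is CPM divided by the gene's length in kilobases. In NCM, Spred1 had 14.6 ± 0.97 RPKM, Dusp10 5.86 ± 0.55, Spred2 4.59 ± 0.41, Dusp1 2.25 ± 0.13, Spry1 1.95 ± 0.32, Dusp6 1.92 ± 0.31, Spry2 1.42 ± 0.25 and Dusp5 0.873 ± 0.13 RPKM (SD, n = 4). Dusp4 and Spry4 followed at 0.090 ± 0.032 and 0.039 ± 0.028 RPKM (SD, n = 4). Neighbours in this order whose NCM libraries overlapped were Dusp1 and Spry1, Spry1 and Dusp6, Dusp6 and Spry2, and Dusp4 and Spry4. In LLC-CM the order of the upper 3 was the same, at 12.7 ± 0.96, 7.60 ± 0.49 and 3.19 ± 0.18 RPKM (SD, n = 4). Dusp6 (2.57 ± 0.16 RPKM) then came just above Dusp1 (2.33 ± 0.32 RPKM), with overlapping libraries, and Spry1 (1.0 ± 0.17 RPKM, SD, n = 4) was at the level of Dusp5 (1.24 ± 0.21 RPKM).

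**Figure D3:**
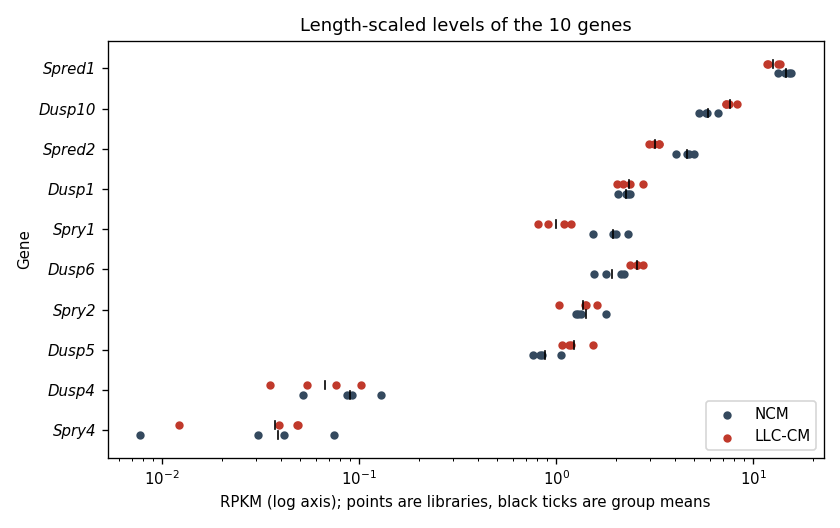
Levels of the 10 genes in RPKM (horizontal log axis), ordered by their NCM mean, with 1 point per library and group means as black ticks. Spred1 is highest in both groups, Dusp4 and Spry4 lie far below the other genes, and Spry1 ranks 5 in NCM and 8 in LLC-CM.

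Whether close relatives changed unequally was examined in 6 pairs by the log2 ratio of their reads within each library, which does not depend on library scaling. The Spred1 to Spred2 ratio was 2.54 ± 0.12 in LLC-CM and 2.23 ± 0.04 in NCM (SD, n = 4), and the groups did not overlap (exact two-sided permutation test, p = 0.0286, adjusted p = 0.171 over 6 pairs). With 4 libraries against 4 no smaller p than 0.0286 is possible, and 1 pair at that value adjusts to 0.171. The Dusp1 to Dusp6 ratio was -0.20 ± 0.23 in LLC-CM and 0.19 ± 0.18 in NCM (SD, n = 4, exact permutation p = 0.0571, adjusted p = 0.171). Dusp5 and Dusp6 gave -1.24 ± 0.25 and -1.30 ± 0.37 (SD, n = 4, exact permutation p = 0.714, adjusted p = 0.857). Ratios of Dusp4 to Dusp6, Spry1 to Spry4 and Spry2 to Spry4 rest on few reads and had group differences of -0.86, -1.05 and -0.14, with exact permutation p of 0.114, 0.286 and 0.943. No pair passed after adjustment and 1 of 6 was under 0.05 before it, which does not show that the relatives changed alike. Spry1 to Spry2 was not among the pairs, so their ratio was not tested.

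Of 8 other phosphatases that act on MAP kinases, 5 were tested, 4 fell and none rose, beside 18.1% lower and 18.8% higher of all tested genes, with a median log2 fold change of -0.55. Whether they differed as a group from Dusp5, Dusp6 and Dusp10 was not tested. Dusp8, which acts on JNK and p38, fell from 9.17 ± 0.35 to 2.10 ± 0.35 CPM (SD, n = 4), a log2 change of -2.11 ± 0.14 (SE; edgeR adjusted p = 1.2e-08). Dusp16, a JNK phosphatase, fell by 0.55 ± 0.11 (SE, edgeR, adjusted p = 0.00085). Ptprr, a receptor-type tyrosine phosphatase that binds ERK, had 158 reads over the NCM libraries and 3 over the LLC-CM libraries, all of these in replicate 4. The ratio of NCM to LLC-CM was 57.0, with an exact 95% counting interval of 19.2 to 279. Ptprr had enough reads to be tested through its NCM libraries alone. It could therefore enter the count and the median of this list only as a lower gene. Dusp7, an ERK phosphatase close to Dusp6, fell by 0.30 ± 0.10 (SE, edgeR). Dusp2 had 12 reads over LLC-CM and 1 over NCM, a ratio of 11.1 with a counting interval of 1.64 to 474, and was not tested. The counting intervals of Ptprr and Dusp2 pool the reads of each group and leave out the spread between libraries.

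Of 15 other inhibitors of receptor and Ras signalling tested, 4 rose and 4 fell, beside 18.8% higher and 18.1% lower of all tested genes, with a median log2 fold change of -0.02. Il17rd, also called Sef, an antagonist of fibroblast growth factor receptor signalling, fell from 31.0 ± 0.96 to 17.8 ± 1.27 CPM (SD, n = 4, adjusted p = 6.7e-07). Lrig1, which promotes degradation of epidermal growth factor receptors, rose 2.17-fold to 37.3 ± 5.09 CPM (SD, n = 4, adjusted p = 1.8e-07). Errfi1, an inhibitor of the epidermal growth factor receptor kinase, rose 1.35-fold to 182 ± 8.92 CPM (SD, n = 4, adjusted p = 2.2e-05). Spred3, the remaining Spred gene, had a log2 difference of 0.34 ± 0.15 (SE) and was not called.

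Of 13 receptor tyrosine kinase genes tested, 4 rose and 4 fell, beside 18.8% higher and 18.1% lower of all tested genes, with a median log2 fold change of 0.06. Egfr, the epidermal growth factor receptor, rose 3.76-fold to 30.5 ± 4.74 CPM (SD, n = 4, adjusted p = 1.5e-06). Axl, the receptor for Gas6, rose 1.39-fold and Insr, the insulin receptor, fell by 0.85 ± 0.07 on the log2 scale (SE). Among the fibroblast growth factor receptors, which Sprouty proteins restrain, Fgfr1 fell by 0.36 ± 0.07 and Fgfr2 rose by 0.30 ± 0.06 (SE). Fgfr3 had a log2 difference of -0.27 ± 0.10 (SE, edgeR, adjusted p = 0.052) and was not called. Of 11 ligands tested, 4 rose and 2 fell, beside the same 18.8% and 18.1%, with a median of 0.32. Kitl, the ligand of the Kit receptor, rose 4.94-fold to 54.1 ± 3.65 CPM, Fgf7 rose 1.45-fold to 119 ± 11.8 CPM, and the platelet-derived growth factor gene Pdgfa fell to 30.4 ± 2.97 from 88.0 ± 9.23 CPM (SD, n = 4). The adjusted p of Kitl, Fgf7 and Pdgfa were 1.3e-07, 7.9e-05 and 2.2e-09 in edgeR. An annotated gene on the other strand overlapped 26.1% of the exonic bases of Pdgfa.

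Of 20 Ras-ERK cascade genes, all tested, 3 rose, 5 fell and 12 were not called, beside 18.8% higher and 18.1% lower of all tested genes, with a median of -0.01. Frs2, the docking protein that links fibroblast growth factor receptors to Ras, fell from 205 ± 3.59 to 89.8 ± 5.17 CPM (SD, n = 4, adjusted p = 3e-10). Gab2, another docking protein, fell with a log2 change of -1.22 ± 0.16 (SE; edgeR adjusted p = 2.2e-05), and Ksr1, a scaffold of the Raf-ERK module, rose 2.94-fold to 18.2 ± 0.67 CPM (SD, n = 4, adjusted p = 3.4e-09). Of 17 tested genes of the JNK, p38 and ERK5 cascades, 2 rose and 6 fell, beside the same 18.8% and 18.1%, with a median of -0.14. Map3k5, a stress-activated kinase upstream of JNK and p38, fell from 11.3 ± 1.64 to 1.41 ± 0.35 CPM (SD, n = 4, adjusted p = 3.3e-09). Mapk12, a p38 kinase, fell by 0.72 ± 0.09 and Mapkapk3, a kinase activated by p38, rose by 0.80 ± 0.09 (SE, edgeR, adjusted p = 9.2e-06 and 2.7e-06).

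Of 22 transcripts that respond to ERK or encode Ets factors, all tested, 5 rose and 8 fell, beside 18.8% higher and 18.1% lower of all tested genes, with a median of -0.14. Egr1, an immediate early transcription factor, fell with a log2 change of -1.20 ± 0.09 (SE; edgeR adjusted p = 9.7e-08). Ccnd1, cyclin D1, fell from 312 ± 12.9 to 203 ± 11.8 CPM (SD, n = 4, adjusted p = 1e-06), and LTO1 on the other strand overlapped 23.4% of its exonic bases. Jun, a component of AP-1, rose 2.75-fold to 5.80 ± 0.70 CPM (SD, n = 4, adjusted p = 6.1e-06). Etv4 and Etv5, Ets factors induced together with Dusp6 and Spry4 by fibroblast growth factors in many tissues, had log2 differences of 0.27 ± 0.31 and -0.44 ± 0.21 (SE) and were not called.

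**Figure D4:**
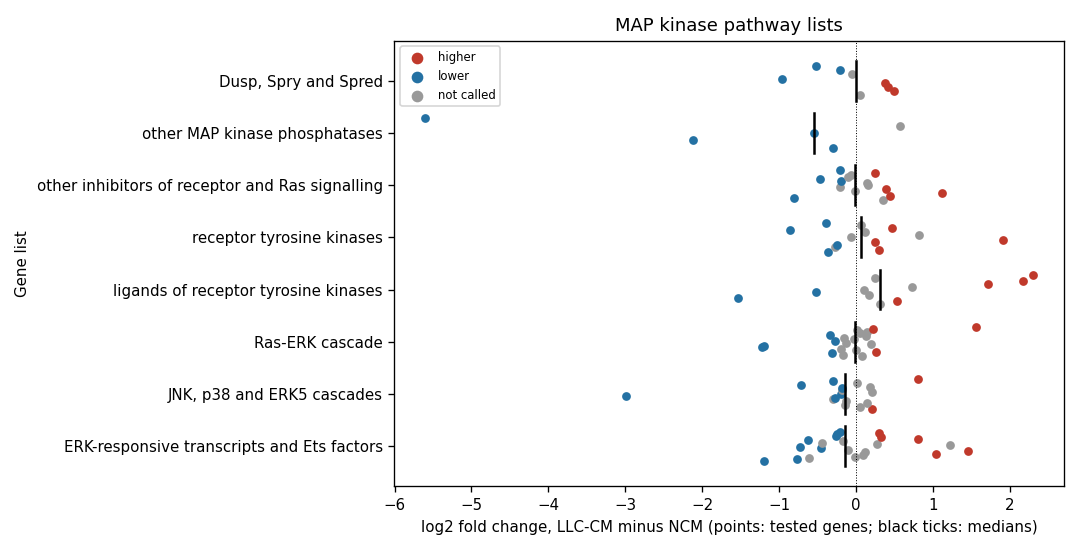
Log2 fold change (horizontal axis, LLC-CM minus NCM) of every tested gene in the set and in 7 other MAP kinase pathway lists, coloured by the edgeR call, with list medians as black ticks. The set spans -0.96 to 0.50, and the point furthest left in the figure is Ptprr, whose fitted value rests on 3 LLC-CM reads.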

How the data were processed

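RNA of 8 MC3T3 samples, 4 LLC-CM and 4 NCM, was sequenced from poly(A)-selected libraries made with a kit that does not mark strand, per the labels' protocols. The deposited table gives raw counts of reads per gene, made with CASAVA, STAR, featureCounts and the mm10 build per the submitters' processing notes, with versions and gene annotation not given in the sources used here. Columns were matched to samples by title, and the titles also give group and replicate number. Libraries held 27264212 to 35573953 counts. No library was a copy of another of its group (chi-square per degree of freedom at least 7.07).

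Genes were tested with edgeR 4.0.16 (R 4.3.3): filterByExpr, TMM factors, robust quasi-likelihood F test without covariates, and Benjamini-Hochberg adjustment over the 14991 genes tested, at 0.05. CPM use TMM-scaled totals, RPKM also the table's gene length, and SE is taken as the size of the log2 fold change over the root of its F value. Log2 ratios within libraries used a pseudocount of 0.5 reads and an exact permutation test. The fit was tested on simulated data. Exon overlaps come from GENCODE M21 and upstream sequences from RefSeq (GRCm38.p6).

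The genes and lists were chosen with earlier results of these data known. Besides the 10 genes, the text names up to 3 genes per pathway list with the smallest adjusted p. Dusp2, Dusp7, Spred3, Fgfr1, Fgfr2, Fgfr3, Etv4, Etv5 and the motifs were chosen after values or sequences were seen. Spry3 was not analysed here. Alternatives were other scalings (DESeq2 size factors, upper quartile, library size), no low-count filter, 1 CPM in 4 libraries, DESeq2 1.42.0, limma-voom (limma 3.58.1), the replicate number as a block, odd or even number as a term, odd- or even-numbered libraries alone, each library left out, a threshold of 0.01, and a test against a 1.5-fold change.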

Additional observations from a re-analysis of the deposited data

Results flagged for a closer look

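Of 86 groups of 4 libraries checked for a value far from the other 3, 2 were flagged, where chance flags about 1 in 20. Spry2 was at 3.74 CPM in NCM replicate 3, against 2.62 to 2.78 CPM in the other NCM libraries. Ptprr was at 0.0897 CPM (3 reads) in LLC-CM replicate 4 and had no read in the other 3 LLC-CM libraries, so this value is at the limit that a count of 0 allows.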

How the results depend on the processing

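The direction of the 6 called genes held under all 20 alternatives run for each. Of these, Dusp5 lost its call in 13, Spred1 in 7, Dusp6 in 5, Dusp10 in 3, Spred2 in 2 and Spry1 in 1, the last 3 in none that left out 1 library. Each of these tallies includes the test against a 1.5-fold change. All of these genes but Spry1 changed by less than 1.5-fold, so their loss in that test was fixed in advance. Without 1 library each, the set's higher count ran from 1 to 3 and its lower count from 2 to 3. The odd-numbered libraries alone gave 1549 higher and 1485 lower genes, with 1 of the set higher and 2 lower. The even-numbered libraries alone gave 1623 higher and 1522 lower genes, with 0 of the set higher and 1 lower. Against a 1.5-fold change 777 genes were higher and 634 lower, and 0 of the set in either direction. At 0.01, 1 of the set was higher and 2 were lower. These alternatives use fewer samples or a stricter test. The uncalled genes changed sign: with the even-numbered libraries alone, the log2 fold change was -0.034 for Dusp1 and 0.22 for Spry2. Without 1 library each, Dusp1 ran from -0.049 to 0.103 and Spry2 from -0.144 to 0.066. Deviations of same-numbered libraries correlated at 0.07, -0.04, 0.20 and -0.03 across genes. LLC-CM replicates 1 and 3 correlated best with the NCM library of their own number, and LLC-CM replicates 2 and 4 did not. So few correlations cannot decide whether replicate numbers pair the samples. With the replicate number as a block 2810 genes were higher and 2663 lower, and 2 of the set were higher and 3 lower. The permutation tests were not run with a library left out, and within pairs of libraries they cannot reach 0.05. A low count limits Dusp4, Spry4 and Dusp5.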
